A study of Mus musculus with 3 samples.

Results

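Endothelial cells that lay beside a pericyte were compared with endothelial cells that had none nearby, inside sections of 3 mouse mammary tumours. The cells were chosen by their own counts of 4 genes and by the distance between cell centres. Cells with at least 20 panel transcripts were gated. An endothelial cell held at least 3 transcripts of Pecam1 and Cdh5 together and at most 1 of Pdgfrb and Rgs5 together, and a pericyte the reverse. The near arm took endothelial cells with a pericyte centre within 20 µm, and the far arm took those with none within 60 µm. This gave 9163 cells, 5749 near and 3414 far, of 17309 endothelial cells and 1963273 deposited cells in all. Another 8146 endothelial cells, with the nearest pericyte between these distances, entered neither arm. Tumours 1, 2 and 3 gave 3226, 1609 and 914 near cells and 1092, 1305 and 1017 far cells.

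The 3 tumours are titled MMTV-PyMT WT and form 1 group with no treatment and no control (n = 3). In MMTV-PyMT mice a mammary promoter drives the polyoma middle T oncogene, and mammary carcinomas develop. The sources used here do not say what WT refers to, nor the age of the mice, nor whether the tumours came from separate mice. Each tumour was a formalin-fixed, paraffin-embedded section read by MERSCOPE, which counts single transcripts in place and assigns them to segmented cells, with the stated aim of describing transcriptional heterogeneity in space.

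Pericytes are the mural cells of capillaries. They share a basement membrane with the endothelium and are drawn to it by PDGF-B, which endothelial cells secrete and PDGFRβ on the pericyte receives. Notch ligands on endothelial cells signal to Notch3 on mural cells, and pericyte coverage is often loose or patchy in tumour vessels.

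The near sums held 460760, 251876 and 149956 panel transcripts in tumours 1, 2 and 3, and the far sums 142948, 226200 and 145450. Median transcripts per cell were 122, 136 and 142 near against 114, 142 and 118 far. The blank codes, which match no gene, took between 0.481% and 0.503% of all decoded transcripts, and 98 of the 258 genes exceeded the highest blank code in endothelial cells of all 3 tumours. No cell identifier occurred in more than 1 tumour. Pecam1 and Cdh5 were the panel's defining endothelial markers, and both are used by the gate. Of genes the gate did not use, the Notch ligand gene Dll4, which marks sprouting and arterial endothelium, stood at 12.9 ± 3.0 per 1000 panel transcripts in endothelial cells (SD, n = 3), 0.876 ± 0.376 in pericytes and 0.717 ± 0.173 in cells outside both gates. The basement membrane collagen gene Col4a1 stood at 196 ± 20, 83.8 ± 29.6 and 17.3 ± 4.1 in the same order. These levels fit the label and are given as a description, since the gate chose the cells. Endothelial cells also held transcripts of the fibrillar collagen gene Col1a1 (75.5 ± 10.02 per 1000), which stood at 265 ± 15 in pericytes, and of the epithelial factor gene Sox9 (16.9 ± 1.8), which stood at 48.1 ± 2.6 outside both gates.

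The gates left many cells close to their limits. Exactly 3 endothelial gate transcripts were held by 2489, 1658 and 1434 endothelial cells of tumours 1, 2 and 3, and 6113, 4501 and 4313 cells fell just short with 2. For pericytes the numbers were 3670, 2394 and 1840 just inside and 10588, 7202 and 6760 just outside. From 17 to 20 µm from a pericyte lay 583, 299 and 173 endothelial cells, and from 20 to 23 µm lay 530, 268 and 159. Just inside 60 µm, from 57 µm on, lay 147, 132 and 81, and up to 63 µm lay 153, 112 and 50. A single Pdgfrb or Rgs5 transcript was held by 31.3%, 28.7% and 26.3% of near cells against 20.2%, 19.4% and 16.3% of far cells. Another 3195, 1658 and 603 cells held at least 3 endothelial and at least 2 mural gate transcripts together and entered neither class.

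Endothelial cells had a pericyte beside them more often than other cells did. A pericyte centre lay within 20 µm of 37.3%, 29.8% and 27.9% of endothelial cells in tumours 1, 2 and 3, against 15.3%, 9.85% and 6.36% of cells outside both gates. The endothelial share was the higher in each tumour, and the ranges did not overlap. The means were 31.7% ± 5.0 and 10.5% ± 4.5 (SD, n = 3), a paired log2 ratio of 1.67 ± 0.43 (exact two-sided sign-flip test over tumours, p = 0.25, the smallest that 3 pairs allow). The median distance to the nearest pericyte was 26.7, 33.3 and 37.9 µm from endothelial cells and 40.5, 54.5 and 63.5 µm from cells outside both gates. Far cells made up 12.6%, 24.2% and 31.0% of the endothelial cells.

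**Figure D1:**
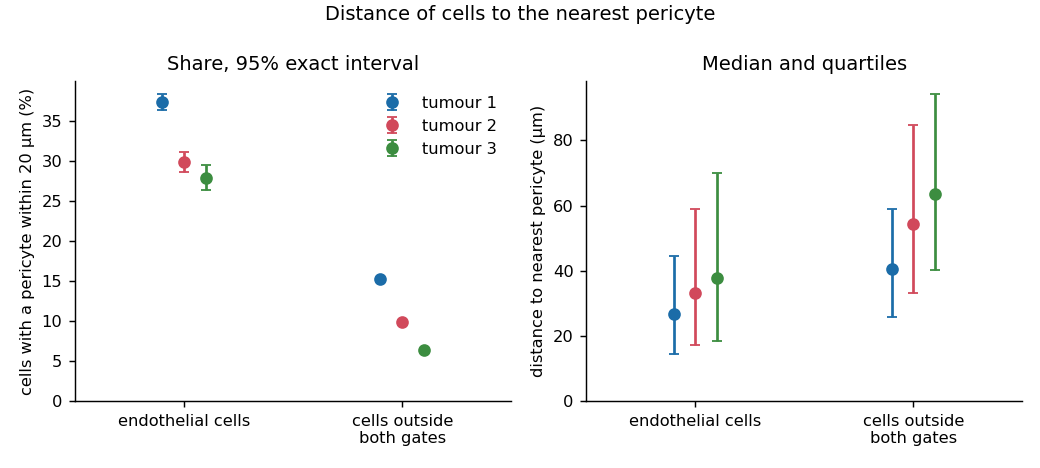
Left, share of cells with a pericyte centre within 20 µm (%, with exact 95% binomial intervals, which cover counting error only) in each tumour for endothelial cells and cells outside both gates. Right, distance to the nearest pericyte (µm, median with quartiles). Endothelial shares lie from 27.9% to 37.3%, all above the other cells' shares of 6.36% to 15.3%.

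Other stromal cells were also more frequent around near cells. Cells passing a gate on 6 fibroblast genes, such as Col1a1 and Postn, numbered 4.11, 3.41 and 3.27 per near cell within 20 µm, against 2.73, 2.38 and 2.72 per far cell. The near value was higher in each tumour and above every far value (paired log2 ratio 0.46 ± 0.17, exact sign-flip p = 0.25). This gate is loose and passed between 15.3% and 21.9% of kept cells. Other endothelial cells numbered 0.788, 0.553 and 0.498 near against 0.611, 0.471 and 0.302 far (0.44 ± 0.25, exact p = 0.25). Cells passing a macrophage gate on Adgre1 and Cx3cr1 numbered 0.363, 0.208 and 0.0667 near against 0.243, 0.148 and 0.0462 far (0.53 ± 0.05, exact p = 0.25). The number of kept cells of any kind did not differ beyond the spread, at 11.2 ± 2.1 near and 11.3 ± 2.3 far (log2 ratio -0.01 ± 0.10, exact p = 1). Near cells held 19.9, 19.0 and 18.3 transcripts per 100 µm3 of cell volume, against 16.4, 18.7 and 16.3 in far cells (exact p = 0.25).

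Across the 254 genes that the gates did not use, 50 (19.7%) differed between near and far endothelial cells at an adjusted p under 0.05 (edgeR quasi-likelihood test, Benjamini-Hochberg over all genes, tumour as a block). Of these, 17 (6.69%) were higher beside pericytes and 33 (13%) were lower. Among the 17 higher genes were Col4a1, Sparc, Jag2, Id1, Cav1 and Lama3, which were more abundant in endothelial cells than in pericytes or outside both gates. Also among the 17 were the stromal genes Col1a1, Postn, Thy1, Dkk3, Lrrc15 and Il1r1. Among the 33 lower genes were Sox9, Wwc1, Gata3, Clu, Tgfb3 and Chad. The higher genes changed by 0.31 to 0.88 and the lower genes by -0.30 to -1.06 on the log2 scale. The same sign held in all 3 tumours for 16 of the 17 and for 33 of the 33, and near and far levels did not overlap for 3 and 15. Of the other 204 genes 72 had the same sign in all 3 tumours, and 13 had arms that did not overlap. Of the 17, 10 exceeded the highest blank code in every tumour, as did 27 of the 33. Il1r1 and Lrrc15 were not among the 10.

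These calls rest on tumour 2 and on how libraries were scaled. Without tumour 2 none of the 251 genes tested passed (38 at an unadjusted p under 0.05, edgeR), against 24 higher and 40 lower without tumour 1, and 10 higher and 17 lower without tumour 3. The 50 genes kept their sign under each of these. Without tumour 3 the values of Col4a1 (0.19), Sparc (0.28), Jag2 (0.40), Id1 (0.40), Col1a1 (0.39), Thy1 (0.50) and Tgfb3 (-0.45) no longer passed, nor without tumour 1 those of Cav1 (0.33), Lama3 (0.44) and Adgre1 (0.76). The split of higher to lower was 17 to 33 with TMM scaling, 9 to 37 with library size alone and 14 to 8 with cell volume. Scaling to 16 endothelial-enriched genes, chosen after seeing the data, gave 0 to 42. Col4a1 made up 82.2% to 87.6% of the counts that set that scale, so its own change was held near 0 by construction and the median of all genes moved from -0.02 to -0.31. That split is therefore no test of the higher genes.

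**Figure D2:**
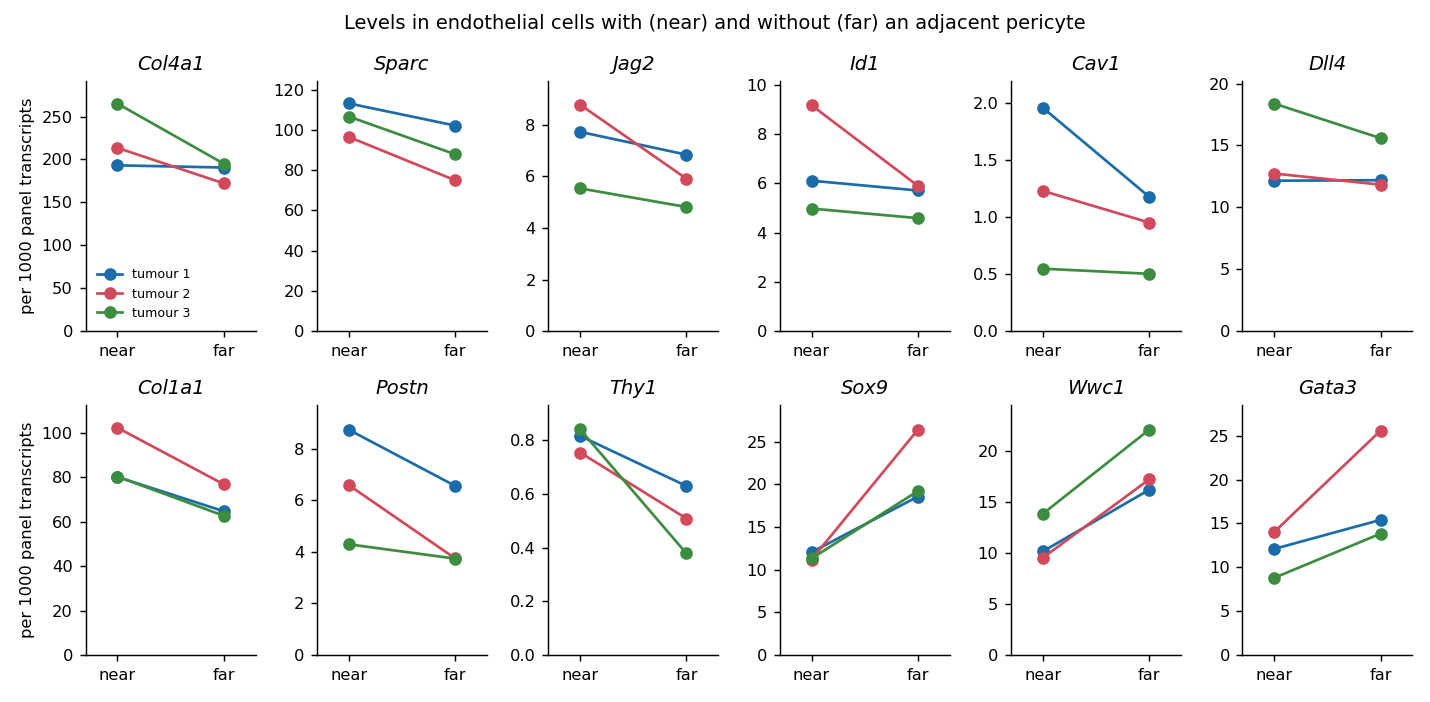
Level in each tumour (counts per 1000 panel transcripts, linear axes from 0) of 12 genes in near and far endothelial cells, with a line joining the arms of each tumour. Col1a1, Thy1, Sox9 and Wwc1 show arms that do not overlap, while for Col4a1 tumour 1 is almost level (193 near, 191 far) and Dll4 did not pass the test.

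Type IV collagen and Sparc transcripts were higher in endothelial cells beside pericytes. Col4a1, which encodes a chain of the type IV collagen network under the endothelium, stood at 193, 214 and 265 per 1000 near against 191, 172 and 195 far. It was higher near in each tumour, by little in tumour 1, and the arms overlapped (log2 change 0.31 ± 0.09 SE, edgeR adjusted p = 0.0163). Sparc, which encodes a collagen-binding matricellular protein, stood at 113, 96.5 and 107 near against 102, 75.03 and 87.9 far. Near exceeded far in each tumour, again with overlapping arms (0.31 ± 0.09, edgeR adjusted p = 0.0127). The laminin chain gene Lama3 was higher as well (0.48 ± 0.16, edgeR adjusted p = 0.0248), while Lamb3 was lower (-0.41 ± 0.14, edgeR adjusted p = 0.0336) and Lama5 stood at 2.52 ± 0.31 near and 2.59 ± 0.21 far. The basement membrane list thus had 2 higher and 1 lower of 4 members, with a median of 0.16 against -0.02 for all genes. Over all genes 6.69% were higher and 13% lower. Lama3 did not exceed the highest blank code in all tumours.

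The caveolar gene Cav1 stood at 1.95, 1.23 and 0.547 per 1000 near against 1.18, 0.95 and 0.502 far. It was higher near in each tumour, most in tumour 1, and did not exceed the highest blank code in every tumour (0.49 ± 0.16, edgeR adjusted p = 0.0303). Its arms overlapped because the tumours differed from each other more than the arms did. The vascular list held 4 measured genes beyond the gates, and none passed. These were the contractile genes Acta2 (0.36 ± 0.23) and Tagln (0.40 ± 0.17), which mark smooth muscle, the growth factor gene Pdgfa (0.11 ± 0.14) and the angiogenesis inhibitor gene Thbs1 (-0.25 ± 0.10), with edgeR adjusted p from 0.076 to 0.589.

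Of the Notch genes, Jag2 was higher and Dll1 lower beside pericytes, and the other 9 did not pass. Jag2, a ligand gene, stood at 7.72, 8.78 and 5.53 per 1000 near against 6.84, 5.91 and 4.81 far. Near was higher in each tumour, most in tumour 2, and the arms overlapped (0.37 ± 0.11, edgeR adjusted p = 0.0129). Dll4 stood at 12.2, 12.7 and 18.4 near against 12.2, 11.8 and 15.6 far, and did not pass (0.16 ± 0.10, edgeR adjusted p = 0.241). The ligand gene Jag1 did not pass either (0.24 ± 0.12, edgeR adjusted p = 0.171). The ligand gene Dll1, at 3.38, 4.06 and 3.49 near against 3.81, 5.59 and 4.89 far, was lower near in each tumour (-0.32 ± 0.11, edgeR adjusted p = 0.0332).

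The receptor gene Notch1, which is expressed in endothelium, stood at 17.5, 22.2 and 16.1 per 1000 near against 16.2, 22.9 and 17.2 far (0.04 ± 0.10, edgeR adjusted p = 0.78). Notch3, the receptor of mural cells, stood at 3.75, 4.63 and 3.83 near against 3.88, 6.54 and 5.45 far (-0.30 ± 0.11, edgeR adjusted p = 0.0512), although pericytes held 14.7 per 1000 and endothelial cells 4.74. None of the 3 mural genes outside the gate passed. Notch3, Acta2 (0.36) and Tagln (0.40) had a median of 0.36 and differed in sign, and only Notch3 exceeded the highest blank code in every tumour. Among cells with at most 2 epithelial transcripts Notch3 stood at 0.20. The target gene Hey1 stood at 0.994, 1.40 and 0.640 near against 1.18, 2.06 and 0.804 far (-0.34 ± 0.16, edgeR adjusted p = 0.12). Over the Notch list 1 of 11 was higher and 1 lower, with a median of -0.02, which is that of all genes. Of all genes 6.69% were higher and 13% lower.

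Genes of the BMP and TGF-beta pathways changed in both directions. The BMP target gene Id1, an inhibitor of differentiation factors active in endothelium, stood at 6.11, 9.18 and 4.98 per 1000 near against 5.72, 5.91 and 4.59 far. It was higher in each tumour, with most of the difference in tumour 2 (0.34 ± 0.11, edgeR adjusted p = 0.0284). Its relative Id3 moved by a like amount without passing (0.39 ± 0.15, edgeR adjusted p = 0.0543). Id2, at 5.93, 4.87 and 4.94 near against 7.44, 8.32 and 7.06 far, was lower near with no overlap (-0.49 ± 0.11, edgeR adjusted p = 0.00111). Unlike Id1, Id2 was more abundant outside both gates (14.1 per 1000) than in endothelial cells (6.75).

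The ligand gene Tgfb3 stood at 12.4, 14.3 and 9.37 near against 15.4, 22.1 and 16.5 far, lower near in each tumour without overlap (-0.54 ± 0.10, edgeR adjusted p = 0.000186). Pmepa1, a feedback inhibitor gene, was lower as well (-0.30 ± 0.10, edgeR adjusted p = 0.0287). The receptor genes Tgfbr1, Tgfbr2, Tgfbr3 and Bmpr1a lay between -0.11 and 0.14 and did not pass. In all 2 of 12 members were higher and 3 lower, with a median of 0.06. Over all genes 6.69% were higher and 13% lower.

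Matrix and stroma genes were the list with the most members higher, 8 of 16 with none lower and a median of 0.36. Over all genes 6.69% were higher. Col1a1 stood at 80.2, 102 and 80.3 per 1000 near against 64.7, 76.9 and 62.7 far, and every near value lay above every far value (0.41 ± 0.09, edgeR adjusted p = 0.00111). Postn, which encodes the matrix protein periostin, stood at 8.73, 6.58 and 4.29 near against 6.55, 3.74 and 3.73 far, higher near in each tumour with overlapping arms (0.53 ± 0.11, edgeR adjusted p = 0.000899). Thy1, a surface marker gene of fibroblasts and mural cells, stood at 0.816, 0.754 and 0.840 near against 0.630, 0.508 and 0.378 far without overlap, and was not above the highest blank code in every tumour (0.72 ± 0.19, edgeR adjusted p = 0.00787). The other 5 were Sparc, Mgp (0.38 ± 0.12), the fibroblast gene Lrrc15 (0.56 ± 0.16), the protease gene Mmp3 (0.56 ± 0.19) and the fibronectin gene Fn1 (0.33 ± 0.11). Lrrc15 and Mmp3 were not above the highest blank code in every tumour. In cells outside both gates 12 of the 16 were higher near pericytes and none lower, with a median of 0.58. Over all genes 22.8% were higher in those cells.

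Most genes that were higher in near endothelial cells were more abundant in pericytes than in endothelial cells. This held for 11 of the 17 higher genes, and for 94 of the 204 genes that did not pass. The 11 included Col1a1 (265 against 75.5 per 1000), Postn (22.5 against 5.70), Thy1 (2.78 against 0.704) and the secreted Wnt regulator gene Dkk3 (5.20 against 1.47). The pericyte gate can be passed on Pdgfrb or Rgs5 transcripts alone and set no limit on fibroblast genes. Whether fibroblasts were among the gated pericytes was not tested. The other 6, Col4a1, Sparc, Jag2, Id1, Cav1 and Lama3, were more abundant in endothelial cells than in pericytes or outside both gates. Of 9 fibroblast markers 4 were higher and none lower, where 6.69% of all genes were higher. In cells outside both gates 7 of the 9 were higher and none lower, where 22.8% of all genes were higher in those cells. In endothelial cells none of the 9 was at 0, and their summed level was 88.1 to 115 per 1000 near and 69.2 to 84.8 far. Among near and far cells with no Pdgfrb or Rgs5 transcript at all, 15 genes were higher and 21 lower, with Col1a1 at 0.60, Postn at 0.58 and Jag2 at 0.40 still passing. Among cells with no fibroblast-gate cell within 20 µm, which left 159 to 218 near cells and 216 to 384 far cells a tumour and 193 genes tested, 2 genes were higher and 2 lower. Those higher were Postn, at 1.09, and Jag2, at 0.76 (edgeR adjusted p = 0.0496 for each), while Col1a1 at 0.55 and Col4a1 at 0.46 did not pass.

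Of the 33 lower genes, 32 were less abundant in endothelial cells than outside both gates, as were 134 of the 204 genes that did not pass. The 33 included 3 of the 9 epithelial markers. Sox9, a lineage factor gene of epithelial progenitors, stood at 12.04, 11.2 and 11.3 per 1000 near against 18.6, 26.4 and 19.2 far. The near values were nearly equal and all lay below the far values, of which tumour 2 was the highest (-0.83 ± 0.11, edgeR adjusted p = 4.5e-07). Wwc1, a Hippo pathway scaffold gene, stood at 10.2, 9.54 and 13.9 near against 16.2, 17.2 and 22.1 far, without overlap (-0.68 ± 0.10, edgeR adjusted p = 3.3e-06). Gata3, the luminal factor gene, stood at 12.1, 14.03 and 8.80 near against 15.4, 25.6 and 13.8 far, lower near in each tumour with overlapping arms (-0.57 ± 0.10, edgeR adjusted p = 0.000125).

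The claudin gene Cldn4 (-0.41 ± 0.11), the keratin gene Krt7 (-0.62 ± 0.20), the epithelial factor gene Grhl2 (-0.40 ± 0.11), the polarity gene Crb3 (-0.55 ± 0.19) and the secreted chaperone gene Clu (-0.63 ± 0.12) were lower as well. Krt7 and Crb3 were not above the highest blank code in every tumour. Basal keratin genes did not pass, with Krt5 at 0.08 ± 0.13 and Krt14 at 0.03 ± 0.17. Of the 9 epithelial markers on the panel 3 were lower (Sox9, Gata3 and Cldn4) and none higher, where 13% of all genes were lower. The markers had a median of -0.17, and none was at 0. Their summed level was 32.7 to 40.4 per 1000 near and 49.3 to 61.7 far, so the arms did not overlap. Among cells with at most 2 transcripts of these markers, chosen after seeing the data, no gene was higher and 1 was lower of 201 tested (23 at an unadjusted p under 0.05, edgeR). This limit left 1805, 887 and 399 near and 546, 451 and 402 far cells in tumours 1, 2 and 3. Their median transcripts were 96, 105 and 107 near and 80, 94 and 82.5 far, below those of the full arms in each tumour. The lower gene was Lyve1, at -1.87 (edgeR adjusted p = 0.0409). There Col4a1 stood at 0.08, Sparc at 0.04, Jag2 at 0.09 and Col1a1 at 0.04, while Postn stood at 0.34, Lrrc15 at 0.41, Il1r1 at 0.41 and Dkk3 at 0.32, none passing. Wwc1 stood at -0.56, Tgfb3 at -0.27 and Isg15 at -0.94, also without passing. Of 47 genes that had passed with no such limit, apart from the epithelial markers, 43 kept their sign, and Fn1, Lamb3, Grhl2 and Fzd2 did not.

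Of 22 measured Wnt pathway genes 6 were lower and 1, Dkk3 (0.52 ± 0.14), was higher, where 13% of all genes were lower and 6.69% higher. The median was -0.17 against -0.02 for all genes. The ligand gene Wnt5b stood at 4.57, 3.53 and 4.44 per 1000 near against 7.49, 5.05 and 6.58 far, without overlap (-0.55 ± 0.11, edgeR adjusted p = 0.000344). Wnt5a (-0.50 ± 0.15), the receptor genes Fzd2 (-0.34 ± 0.12) and Lrp6 (-0.34 ± 0.12), the receptor-degrading ligase gene Rnf43 (-0.43 ± 0.15) and the antagonist gene Sfrp1 (-0.39 ± 0.12) were the others. All 6 were more abundant outside both gates than in endothelial cells, such as Wnt5b at 14.3 against 5.06 per 1000.

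Interferon genes were lower where they passed, 3 of 9 with a median of -0.44. Over all genes 13% were lower. The antiviral effector gene Mx1 stood at 0.169, 0.230 and 0.440 per 1000 near against 0.371, 0.442 and 0.804 far, lower near in each tumour and not above the highest blank code in every tumour (-0.92 ± 0.20, edgeR adjusted p = 0.00111). Irf7, the interferon regulatory factor gene, stood at 1.42, 3.79 and 4.91 near against 2.29, 5 and 8.22 far (-0.55 ± 0.11, edgeR adjusted p = 0.000507), and Isg15, a ubiquitin-like modifier gene, at 0.493, 1.03 and 1.70 against 0.790, 1.73 and 2.66 (-0.64 ± 0.15, edgeR adjusted p = 0.00166). For each, the tumours differed more than the arms, with tumour 3 highest in both arms. Isg15, like Mx1, was not above the highest blank code in every tumour. Inside 300 µm tiles that held both arms, Irf7 stood at -0.28, Isg15 at -0.37 and Mx1 at -0.67, none passing. In cells outside both gates 5 of the 9 interferon genes were lower near pericytes and none higher, with a median of -0.43. Over all genes 16.9% were lower in those cells. In endothelial cells the class I gene H2-K1 was the 1 lower of 12 in its list (-0.45 ± 0.11, edgeR adjusted p = 0.00438). None of the 12 was higher, their median was 0.06, and 13% of all genes were lower. In cells outside both gates 2 of the 12 were higher and 2 lower, where 22.8% of all genes were higher and 16.9% lower.

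None of the 8 immediate early and stress genes passed in endothelial cells (median -0.09). In cells outside both gates all 8 were lower near pericytes (median -0.46), where 16.9% of all genes were lower. None of the 8 passed there without tumour 3. The test of the difference between the classes called 1 of the 8, Atf3, against 1.57% of all genes. None of the 3 cell cycle genes passed, with Mki67 at 0.07 ± 0.11 and Top2a at 0.02 ± 0.15. Of 8 mesenchymal transition factor genes, Sox9 was lower and none higher, with Zeb1 at 0.31 ± 0.14 (edgeR adjusted p = 0.126). Over all genes 13% were lower and 6.69% higher. Of 5 macrophage markers, Adgre1 was higher, at 0.375, 0.218 and 0.140 per 1000 near against 0.182, 0.0973 and 0.138 far, a level not above the highest blank code in every tumour and almost equal between arms in tumour 3 (0.88 ± 0.25, edgeR adjusted p = 0.0126). The macrophage list summed to 1.88 to 3.47 per 1000 near and 1.88 to 2.53 far, with none of its members at 0. Its 1 higher gene of 5 stands beside 6.69% higher over all genes. No dendritic, T or NK cell or neutrophil marker passed.

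Lyve1, a hyaluronan receptor gene of lymphatic endothelium and some macrophages, showed the largest decrease among the 254 genes and rested on few cells. It stood at 0.215, 0.528 and 0.10 per 1000 near against 0.742, 0.752 and 0.206 far, lower near in each tumour with overlapping arms and not above the highest blank code in every tumour (-1.06 ± 0.23, edgeR adjusted p = 0.000973). The share of cells with any Lyve1 transcript was alike, at 1.61%, 3.23% and 1.64% near against 1.74%, 3.37% and 1.77% far. Cells with 2 or more Lyve1 transcripts numbered 9, 18 and 0 near and 5, 17 and 3 far, and held 92 of the 106, 143 of the 170 and 15 of the 30 far transcripts. A single far cell of tumour 1 held 38. Without tumour 1 Lyve1 stood at -0.59 and did not pass.

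Levels were also read in 7 bins of distance, which include the endothelial cells in neither arm. Col4a1 in tumour 3 went from 287 per 1000 in cells up to 10 µm from a pericyte through 257 (10 to 20 µm) and 218 (20 to 30 µm) to 191 (30 to 40 µm), and stayed at 189 beyond 100 µm. In tumour 2 it went from 227 to 163 over the same bins. Tumour 1 differed, with Col4a1 at 208 closest to pericytes, 166 from 30 to 40 µm and 225 beyond 100 µm, where 130 cells lay. Dll4 had this shape in tumour 1 too, with 13.4, 9.91 and 15.7 in those bins, and Jag2 with 8.40, 6.71 and 8.23.

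Sox9 went the other way, from 7.63 per 1000 up to 10 µm to 31.2 beyond 100 µm in tumour 2. In tumours 1 and 3 it levelled off, from 9.05 to 17.1 and from 10.6 to 19.98 by 30 to 40 µm, and tumour 1 stood at 15.04 beyond 100 µm. Col1a1 went from 94.7 to 49.0 in tumour 1, 116 to 71.0 in tumour 2 and 80.8 to 53.4 in tumour 3 between the closest and the farthest bin. Hey1 went from 1.15 to 2.20 in tumour 2, against 0.850 to 1.28 and 0.590 to 0.991 in the others. These values describe the bins, which hold 130 to 2188 cells, and were not tested.

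**Figure D3:**
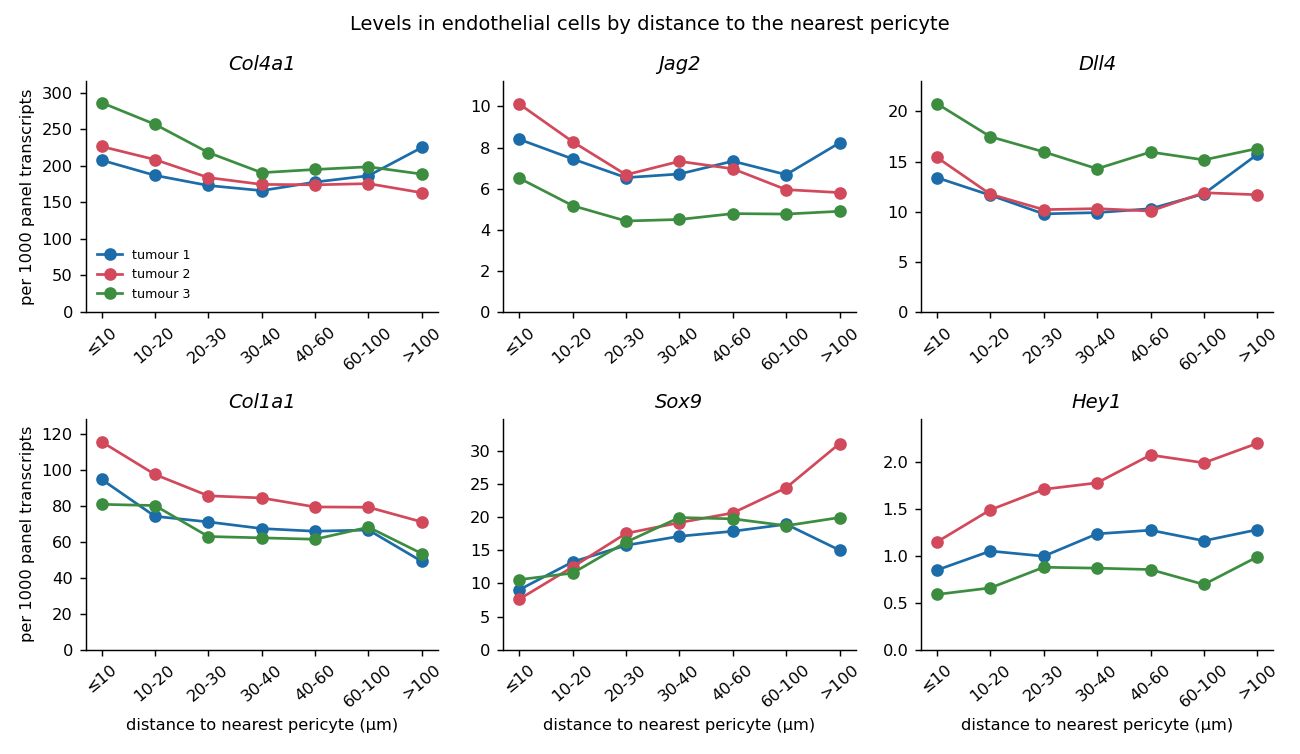
Level of 6 genes (counts per 1000 panel transcripts) in endothelial cells of each tumour by distance to the nearest pericyte (µm, bins of unequal width), with no test. Col4a1 and Jag2 decrease over the first bins and turn up beyond 100 µm in tumour 1, and Sox9 is lowest in the closest bin of each tumour and increases throughout in tumour 2, up to 31.2.

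Cells outside both gates also differed by distance to a pericyte, in 101 of 254 genes (39.8%), 58 higher (22.8%) and 43 lower (16.9%) by the same edgeR test. Without tumour 3 none passed (92 at an unadjusted p under 0.05, edgeR), and without tumour 1 there were 6 higher and 4 lower. Both comparisons use the same pericytes. Of the 17 genes higher in near endothelial cells 16 were also higher in these other cells, the exception being Id1 (0.26 ± 0.15, edgeR adjusted p = 0.162). Of the 33 lower genes 12 were also lower there. The test of the difference itself called 4 genes (1.57%). Without tumour 2 or tumour 3 none of the 4 passed, with 26 genes at an unadjusted p under 0.05 in either case (edgeR).

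Col1a1 in other cells stood at 63.1, 86.3 and 70.3 per 1000 near against 24.4, 25.7 and 25.6 far, a change of 1.48 ± 0.11 against 0.41 in endothelial cells. The difference was -1.01 ± 0.15 (edgeR adjusted p = 0.0032). Sparc in other cells stood at 29.1, 32.8 and 28.1 near against 15.7, 11.3 and 13.2 far, a change of 1.13 ± 0.12 against 0.31 (difference -0.75 ± 0.17, edgeR adjusted p = 0.0453). On the log2 scale both genes thus changed less in endothelial cells, from a higher far level (68.1 ± 7.7 for Col1a1 and 88.4 ± 13.6 for Sparc). Cells outside both gates pool cell types and include the fibroblast-gate and macrophage-gate cells. Whether a different mix of cells near pericytes made up their change was not tested.

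Chad, which encodes the cartilage matrix protein chondroadherin, stood at 1.20, 1.33 and 2.19 per 1000 in near endothelial cells against 2.67, 2.43 and 3.53 in far ones, without overlap (-0.86 ± 0.13, edgeR adjusted p = 8.3e-06). In other cells it stood at 3.70, 3.75 and 6.02 near against 4.07, 3.13 and 4.79 far (0.10 ± 0.13), and the difference was -0.90 ± 0.20 (edgeR adjusted p = 0.0444). The stress response factor gene Atf3 stood at 0.697, 0.711 and 1.09 in near and 0.749, 0.703 and 1.11 in far endothelial cells (0.02 ± 0.17). In other cells it was lower near (-0.80 ± 0.15), a difference of 0.88 ± 0.19 (edgeR adjusted p = 0.0444). For Col4a1, Jag2, Id1 and Cav1 the difference between the classes was -0.04 ± 0.25, -0.21 ± 0.17, 0.14 ± 0.17 and 0.12 ± 0.20, and none passed.

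**Figure D4:**
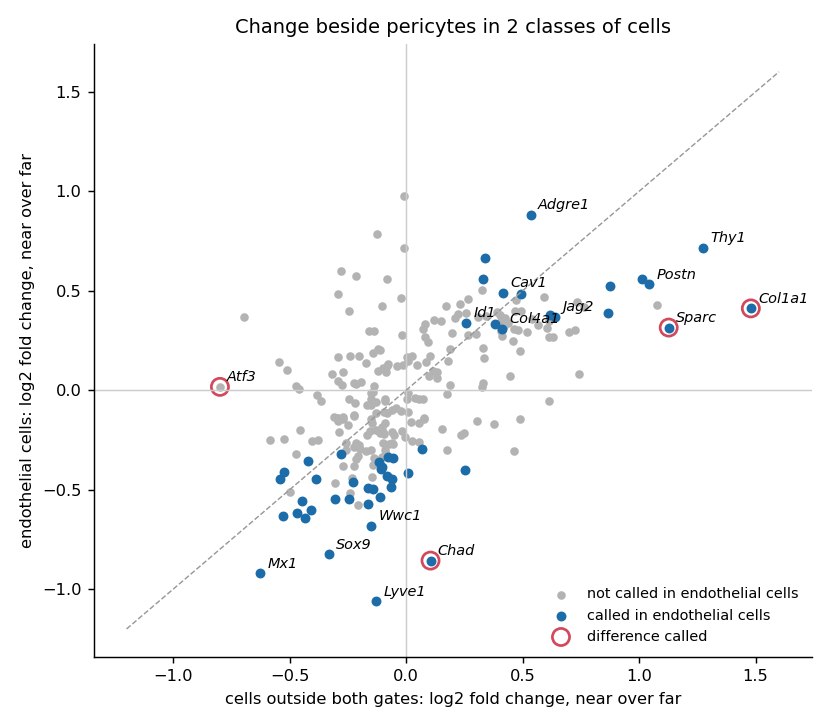
Log2 fold change of each of 254 genes, near over far pericytes, in endothelial cells (vertical axis) against cells outside both gates (horizontal axis). Blue points passed in endothelial cells, red rings mark the 4 genes whose difference passed, and the dashed line is equal change. Col1a1 and Sparc lie far to the right of that line.

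Which genes passed depended on the cells admitted. With the arms drawn closer, at 15 and 50 µm, 26 genes were higher and 35 lower. With 30 and 100 µm none passed (33 at an unadjusted p under 0.05, edgeR), and 49 of the 50 genes kept their sign. Requiring 5 endothelial gate transcripts left 1 higher and 3 lower, and requiring 5 mural gate transcripts of the pericytes left 0 and 6. Inside the 300 µm tiles, with both arms thinned to equal numbers in each tile (749, 547 and 335 cells an arm), 18 genes were higher and 19 lower, of which 10 and 16 were among the 17 and 33. There Col4a1 stood at 0.43, Sparc at 0.39, Jag2 at 0.49, Id1 at 0.64 and Wwc1 at -0.47, all passing, and Cav1 at 0.24, not passing.

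**Figure D5:**
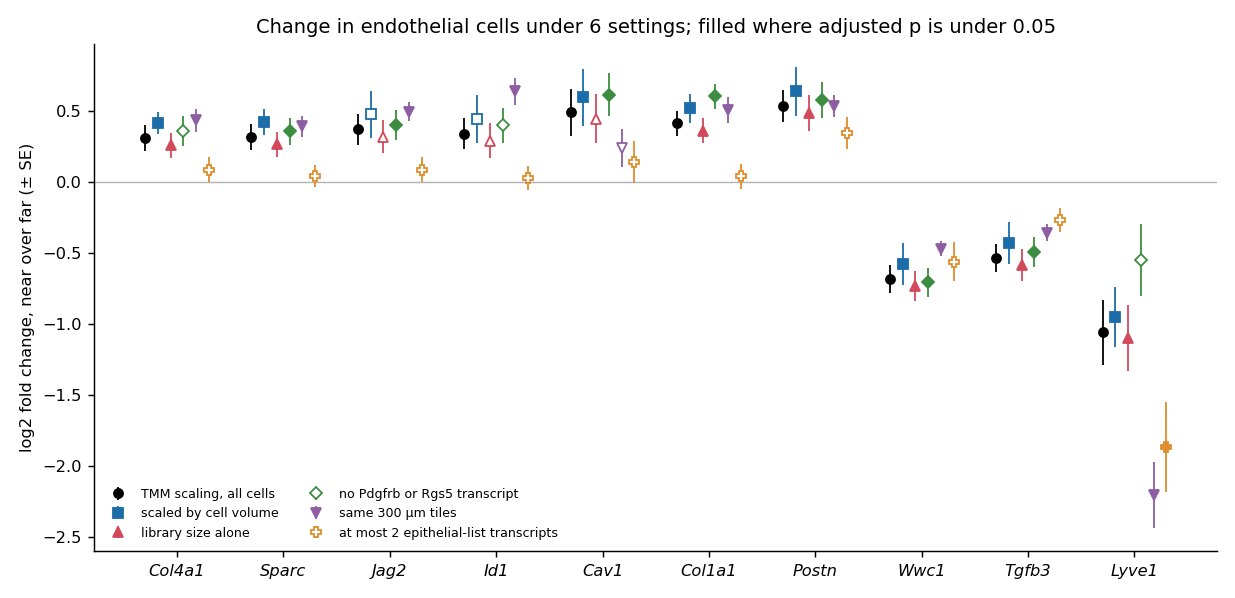
Log2 fold change (± SE), near over far pericytes, of 10 genes in endothelial cells under 6 settings, filled where the edgeR adjusted p was under 0.05. With cell volume scaling Col4a1 lies at 0.41 and Wwc1 at -0.58, and within 300 µm tiles Lyve1 lies at -2.21.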

How the data were processed

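Per the file headers, the authors deposited raw counts of decoded transcripts for 258 genes and 27 blank codes in each cell, and other tables of cell volume and centre with no unit stated. Lengths are read as µm and volumes as µm3, an assumption that rests on the size of the sections. The design text states 265 genes. The deposited total of every cell equalled the sum of its counts. The segmentation method was not given in the sources used here. Scanpy 1.9.3 is named in the submitters' processing notes, with no step given.

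Counts were added up over the cells of each arm of a tumour, which gave 6 sums a comparison and 12 for the difference between classes. The main test was the two-sided quasi-likelihood test of edgeR 4.0.16 under R 4.3.3 (filterByExpr, TMM scaling, tumour as a block), adjusted over all 258 genes. The 4 gate genes were fitted but are not read as results. The 2 arms of a tumour share a section, which is the basis of the pairing. Levels are counts per 1000 panel transcripts of the summed cells (mean ± SD over tumours), and errors of fold changes are SE. Cells are not replicates. The edgeR p-values rest on how the paired change varied between these 3 tumours, with information on that variation shared across genes. Gates and distances were computed in Python 3.11.15 with SciPy 1.17.1, and DESeq2 1.42.0 served as an alternative. The scripts were tested on simulated data, with the same dispersion for every gene of a comparison. At a simulated log2 change of 0.5 the test recovered 50% of changed genes in endothelial cells, 90% in other cells and 26.7% for the difference. At a change of 1 it recovered 86.7%, 100% and 90%. Of unchanged genes it called 0.508%, 3.03% and 1.01%. Differences in dispersion between genes were not simulated, so these rates need not hold for the real data. A change of 0.5 can thus be missed in endothelial cells and for the difference. No doublet caller was run. Cells positive for both gates were left out.

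Members and lists were chosen with earlier results of these data known. Named were up to 30 passing genes with the largest change, the vascular list, the 5 highest and 5 lowest genes above the highest blank code, and genes passing for the difference (39 genes). Another 10 were added after their values were seen (Col4a1, Dll4, Fn1, Hey1, Id1, Id3, Jag1, Jag2, Notch1 and Notch3), as were single list members given beside their counts. The values of 1 gene that passed are not reported here, and it stays in the counts. Alternatives covered scaling, the tool, filters, gates, radii, neighbours, tiles, blank codes and each tumour left out. The tiles alternative was planned as thinning of the far arm, and both arms were thinned to the smaller number in each tile.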

Additional observations from a re-analysis of the deposited data

Results flagged for a closer look

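For 4 genes the change beside pericytes differed between endothelial cells and cells outside both gates, by the edgeR test of that difference. Col1a1 differed by -1.01 and Sparc by -0.75 on the log2 scale, both higher beside pericytes in either class, with the smaller log2 change in endothelial cells. Chad differed by -0.90, being lower in near endothelial cells and not called in other cells. Atf3 differed by 0.88, being lower in near other cells and not called in endothelial cells.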

How the results depend on the processing

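Limits: 3 sections of 1 group, gates of few transcripts, and transcripts of neighbouring cells in segmented cells bound what can be read, and 160 of the 258 genes were not above the highest blank code in endothelial cells of every tumour. For each setting the causes of a change were not tested.

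Counts of passing genes in endothelial cells, 17 higher and 33 lower as reported, became 9 higher with library size alone, 7 higher with DESeq2, 11 higher without the gate genes, 8 lower with volume scaling, 26 higher at 15 and 50 µm, 0 and 0 at 30 and 100 µm, 1 and 3 with at least 5 endothelial gate transcripts, 0 and 6 with at least 5 pericyte gate transcripts, 21 lower without mural transcripts, 2 and 2 with no fibroblast-gate neighbour, and 19 lower within tiles. Of alternatives added after seeing the data, scaling to endothelial-enriched genes, most of whose counts are Col4a1, gave 0 higher and moved all genes by about the same amount, cells with at most 2 epithelial transcripts 0 and 1, and cells without Lyve1 11 and 19. Leaving out each tumour gave 0 to 24 higher and 0 to 40 lower. The low-count filter, the minimum of 40 transcripts, the volume filter and blank codes left both counts within 1.5 times.

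The 2 arms pair within a tumour. With no replicate block 0 genes were higher and 0 lower in endothelial cells (15 at an unadjusted p under 0.05, edgeR), 4 and 0 in other cells, and 0 and 0 for the difference (5 unadjusted).

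In other cells DESeq2 gave 87 lower, and leaving out each tumour 0 to 37 higher and 0 to 24 lower. For the difference, library size alone gave 0 higher and 5 lower, DESeq2 6 and 11, 15 and 50 µm 7 lower, and leaving out each tumour 0 to 5 higher and 0 to 2 lower. With 30 µm in place of 20 µm the log2 ratio was 0.60 for macrophage-gate neighbours and 1.13 for the share with a pericyte. For kept cells of any kind, leaving out each tumour gave -0.0549 to 0.0411, the sign turning without tumour 3.

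The following changed sign. Of these Fn1, Slpi, Lamb3, Grhl2 and Fzd2 had passed as reported. Atf3 became -0.035 with library size alone, -0.017 without tumour 3 (up to 0.069 with others left out), -0.083 at 15 and 50 µm, -0.19 at 30 and 100 µm, -0.0070 with the volume filter, -0.013 within tiles and -0.29 with endothelial-gene scaling. Notch1 became -0.011 with library size alone, -0.0020 without tumour 1 (up to 0.11 with others left out) and -0.26 with endothelial-gene scaling, which also turned Dll4 (-0.14), Jag1 (-0.065) and Pdgfa (-0.19), signs that follow from the shift of all genes. Acta2 was -0.091 without tumour 2 and up to 0.83 with others left out. At 30 and 100 µm Dll4 was -0.056, Slpi 0.036 and Thbs1 0.0018, and Thbs1 was 0.065 with at least 5 endothelial gate transcripts. With at most 2 epithelial transcripts Dll4 was -0.16, Fn1 -0.18, Hey1 0.083, Notch3 0.20, Thbs1 0.12, Lamb3 0.021, Grhl2 0.020 and Fzd2 0.027.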

Other observations

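Endothelial cells with 2 or more Lyve1 transcripts numbered 45, 80 and 3 in tumours 1, 2 and 3. A pericyte lay within 20 µm of 20% of them in tumour 1 (exact 95% interval 9.58% to 34.6%) and 22.5% in tumour 2 (13.9% to 33.2%), against 37.5% and 29.96% of endothelial cells with no Lyve1 transcript. In tumour 3 it was 0 of 3. A transcript of a macrophage marker was present in 22.2% and 26.3% of those cells in tumours 1 and 2, against 23.1% and 20.7% of cells without Lyve1. These groups were formed after seeing the data and the difference was not tested.

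Of the 27 blank codes, 1 was called higher and none lower beside pericytes when they were added to the fit, with 3 at an unadjusted p under 0.05 (edgeR) and a median log2 change of -0.04.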
